A study of Rattus norvegicus with 12 samples.

Results

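Sodium, calcium, HCN, TRP and acid-sensing channel genes were followed in cultured rat hippocampal neurons after oxygen and glucose deprivation (OGD). The genes were chosen by symbol alone: every probe whose accession led to a symbol starting with Scn, Cacna, Cacnb, Hcn, Trpc, Trpm, Trpv, Trpa or Asic was taken, and a gene with several probes was read from the probe of highest mean signal. This gave 62 genes with 77 probes, out of 15154 named genes on the array. Another 8 symbols of these families were not analysed here. Not all 62 code for a pore or a channel subunit: Scnm1 is a splicing factor that acts on a sodium channel transcript, and Trpc4ap is a protein that associates with a TRP channel.

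The cultures came from the hippocampi of E18 Wistar rat embryos and had been kept for 14 to 15 days. OGD cultures were placed for 2 h in a glucose-free saline with sucrose inside an anaerobic chamber, while control (Ctrl) cultures sat for the same time in saline with glucose in an ordinary incubator. Both then recovered in conditioned medium, and RNA was taken after 7 h or 24 h. Each of the 4 groups had 3 arrays from independent cultures, and every array was hybridised in 1 color. Nothing was knocked out or overexpressed, and the controls shared the change to saline and back. These cultures hold glia beside the neurons, and in bulk RNA fewer cells of a type and less RNA per cell cannot be told apart.

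Voltage-gated sodium channels carry the upstroke of the action potential through one large alpha subunit, with small beta subunits that tune gating and surface level. Calcium channels are built on an alpha1 pore, with alpha2delta and beta subunits that bring it to the membrane, and they couple firing to transmitter release and to transcription. HCN channels open on hyperpolarisation and set resting excitability in hippocampal dendrites. TRP channels and acid-sensing channels are cation channels that open to receptor signals, oxidants, heat, stretch or protons, and several have been studied as routes of calcium and sodium entry in ischemic neurons.

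Values are log2 intensities with the array's own median subtracted, so 0 is the middle probe of an array. Since probes differ in brightness, a level is only set against the same probe on other arrays. A gene is said to have risen or fallen where the groups differed at least 2-fold with an unadjusted limma p below 0.05. The study applied the same cut-offs to another test, and by the methods' t-test 5 genes fell at 7 h and 2 at 24 h, where limma gave 4 and 8. No probe of the 30367 on the array passed Benjamini-Hochberg adjustment in limma at either time, although 3590 had an unadjusted p below 0.05 at 7 h and 4160 at 24 h, and the methods' t-test left 1 and 0 after adjustment. The lowest adjusted p among the 62 genes was 0.266 at 7 h and 0.252 at 24 h. All calls are therefore unadjusted. A change is called past p where its unadjusted p was below 0.05, whatever its fold, and the p printed is the one limma gave after adjustment over all probes.

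One array stood apart. OGD 24 h replicate 1 had a median intensity of 131, against 374 and 546 for the other OGD arrays at 24 h and 402 to 477 for the controls, and its spread around the group mean was the highest of the 12 arrays. Values without OGD 24 h replicate 1 are given beside the falls named at 24 h. Since limma takes its error over all 4 groups, this array also enters the 7 h tests. Without it, 6399 probes had an unadjusted p below 0.05 at 7 h and 56 passed adjustment. A filter on dim probes, with all arrays kept, left 11 past adjustment at 7 h. The next lowest median was that of OGD 7 h replicate 1, at 234. The other OGD arrays at 7 h had 364 and 426, and the 7 h controls 447 to 660. Without OGD 7 h replicate 1, the count of genes that fell at 7 h went from 4 to 1, and that of all probes from 505 to 307. Between 78.3% and 87.1% of spots were well above background on an array. Of the 62 genes, 44 were well above background on all 12 arrays, 16 on some and 2 (Asic5 and Cacna2d4) on none.

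More of these genes were lower than higher after OGD. At 7 h, 46 of the 62 lay below the controls and 16 above, with a median log2 change of -0.28, where the median over all named genes was -0.11. At 24 h, 44 lay below and 18 above, with a median of -0.59 against -0.03 for all named genes. Of all named genes, 59.9% lay below the controls at 7 h and 53.5% at 24 h. Within the 44 genes measured above background everywhere the medians were -0.29 and -0.79, where all named genes so measured had -0.11 and -0.10. In the other 18 channel genes the medians were -0.19 and -0.06. A total of 36 genes lay below the controls at both times. The balance depends on the scaling: normexp left 31 below and 31 above at 7 h and 35 below and 27 above at 24 h, 75th percentile scaling 39 and 23 at 7 h, and spike-in scaling 59 and 3 at 7 h and 61 and 1 at 24 h.

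At 7 h, 4 genes fell (Cacna2d3, Cacnb2, Trpc7 and Trpm2), which is 6.45% of the 62, where 1.66% of all probes fell. Scn2b alone rose, or 1.61% of the 62, against 2.08% of all probes. At 24 h, 8 genes fell, among them Asic2, Cacna1h, Cacna2d3, Cacnb3, Trpc4, Trpc5 and Trpc7. The 8 made up 12.9% of the 62, where 1.96% of all probes fell, and 0 of the 62 rose, where 3.71% of all probes rose. All probes include unnamed and dim ones. Of the 15154 named genes, also read from their brightest probes, 313 fell and 237 rose at 7 h. At 24 h 360 of them fell and 415 rose. Of the 10923 named genes well above background on all 12 arrays, 295 fell and 193 rose at 24 h. By p alone, 7 h had 8 genes lower and 3 higher (12.9% and 4.84% of the 62, against 7.03% and 4.79% of all probes). At 24 h the corresponding counts were 17 and 2 (27.4% and 3.23%, against 6.19% and 7.51% of all probes). Cacna2d3, Cacnb2, Trpc5, Trpc6, Trpc7 and Trpm2 are listed by the study from these same arrays, so their direction is not independent evidence.

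The same counts were made for groups that did not overlap. The 3 OGD arrays all lay below the 3 control arrays for 16 genes at 7 h (25.8%, against 15.5% of all probes) and for 12 genes at 24 h (19.4%, against 7.02%). They all lay above for 1 gene at 7 h (1.61%, against 10.6%) and for 4 genes at 24 h (6.45%, against 10.9%). Without OGD 24 h replicate 1, the count of genes that fell at 24 h went from 8 to 2, the median change from -0.59 to -0.28, and the number of all probes that fell from 595 to 184. By p alone the counts at 24 h went from 17 lower and 2 higher to 7 lower and 1 higher (5.77% and 5.06% of all probes without that array). With 2 OGD arrays against 3 controls, 15 genes lay wholly below and 4 wholly above, where 16.3% and 15.3% of all probes did.

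**Figure D1:**
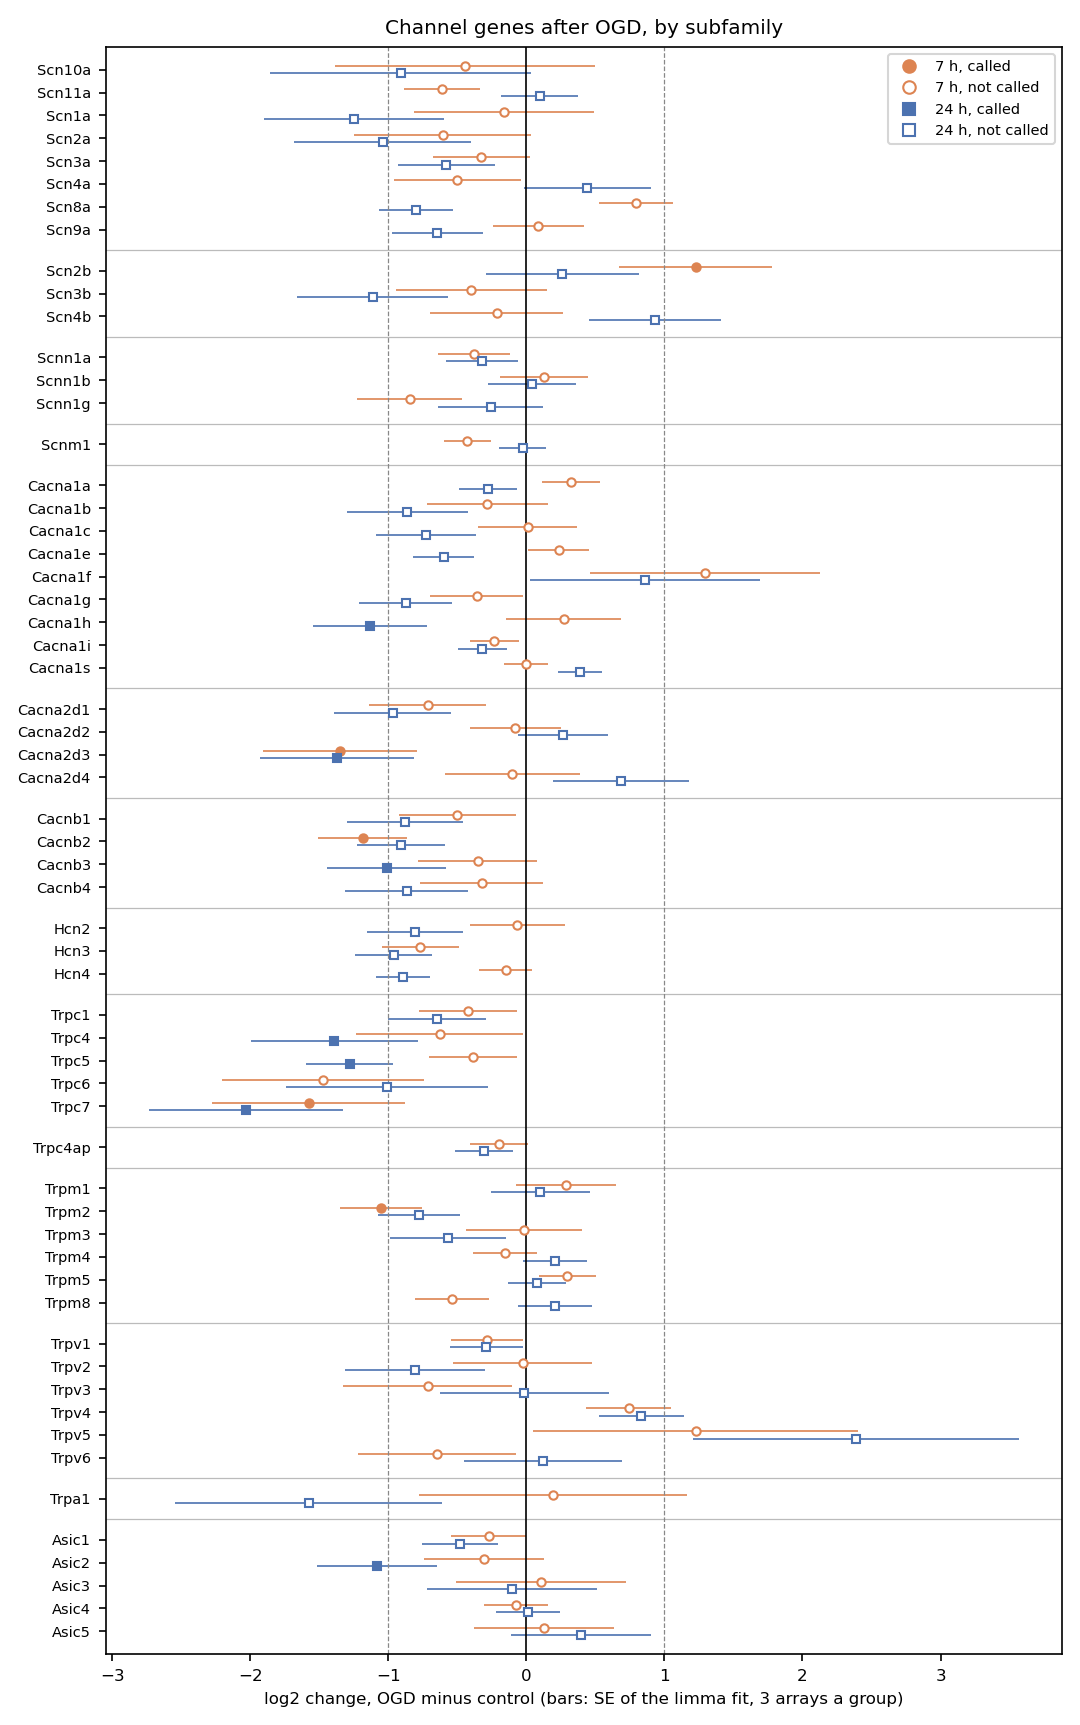
Log2 change (OGD minus control, x axis) of 59 channel genes (y axis, by subfamily) at 7 h (circles) and 24 h (squares), with bars for the standard error, filled symbols for genes past both the p and the 2-fold threshold, and dashed lines at a 2-fold change. Filled symbols lie to the left of 0 for 4 genes at 7 h and 7 at 24 h, and to the right for Scn2b at 7 h.

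The sequence just before the RefSeq start of 4 genes is shown because these genes carry the findings that follow: Cacna2d3 fell at both times, Trpc7 passed both thresholds at both times although it was dim after OGD at 7 h, Trpc5 fell at 24 h, and Scn8a was past p in opposite directions at the 2 times. Each is 250 bases, 5′ to 3′ on the strand of the gene, from RefSeq assembly GRCr8, at chr16:4918900-4919149 (minus strand) for Cacna2d3, chr17:7714651-7714900 (plus) for Trpc7, chrX:113027639-113027888 (minus) for Trpc5 and chr7:133860977-133861226 (plus) for Scn8a. Capitals mark a match to one of 6 motifs on either strand.
Cacna2d3: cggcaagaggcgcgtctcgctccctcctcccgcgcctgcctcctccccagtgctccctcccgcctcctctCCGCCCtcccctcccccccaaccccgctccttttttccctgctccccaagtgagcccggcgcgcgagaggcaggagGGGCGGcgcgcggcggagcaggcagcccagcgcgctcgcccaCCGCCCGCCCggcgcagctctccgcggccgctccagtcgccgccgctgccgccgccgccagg
Trpc7: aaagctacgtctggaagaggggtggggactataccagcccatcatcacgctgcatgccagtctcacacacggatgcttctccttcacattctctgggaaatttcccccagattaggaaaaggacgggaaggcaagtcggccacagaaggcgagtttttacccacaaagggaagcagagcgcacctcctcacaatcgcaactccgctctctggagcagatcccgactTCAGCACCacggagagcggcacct
Trpc5: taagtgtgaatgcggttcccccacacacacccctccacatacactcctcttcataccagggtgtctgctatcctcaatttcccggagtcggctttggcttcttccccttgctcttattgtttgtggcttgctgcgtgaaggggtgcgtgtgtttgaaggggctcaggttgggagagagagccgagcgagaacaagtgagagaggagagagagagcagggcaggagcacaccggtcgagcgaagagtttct
Scn8a: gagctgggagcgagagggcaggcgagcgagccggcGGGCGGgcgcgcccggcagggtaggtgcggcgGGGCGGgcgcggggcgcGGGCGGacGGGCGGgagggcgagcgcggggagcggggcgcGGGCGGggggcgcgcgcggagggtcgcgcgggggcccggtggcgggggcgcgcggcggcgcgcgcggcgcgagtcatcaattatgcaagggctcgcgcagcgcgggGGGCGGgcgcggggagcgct
The windows of Cacna2d3 and Scn8a are 78.8% and 86% G or C and hold 4 and 6 GC boxes (GGGCGG), some of which overlap. Those of Trpc7 and Trpc5 are 55.6% and 55.2% G or C. Trpc7 holds TCAGCACC, the left part of the RE1 element to which the neuronal repressor REST binds, and Trpc5 holds none of the 6.

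Of the 62 genes, 44 had a promoter sequence in RefSeq, with 49 windows in all, and their median GC content was 59.2% against 51.2% over 33465 windows. GC boxes lay in 40.8% of the 49 windows and in 30.5% of all windows. TCAGCACC lay in 2.04% and 1.25%, and GGACAG, the right part of RE1, in 16.3% and 18.2%. ACGTG, the core to which hypoxia-inducible factors bind, lay in 12.2% against 16.6%. The AP-1 motif TGANTCA lay in 6.12% against 6.34%. TGACGTCA, the full site of the cAMP-responsive factor CREB, lay in 0 of 49 windows and in 1.59% of all. A match is a description of these letters, and no binding was measured.

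Sodium channel alpha subunits form the sodium pore, and Scn8a (Nav1.6, the main subunit of the axon initial segment and nodes) was the only one of the 9 to pass p at either time. On the control arrays of replicates 1 to 3 at 7 h it read 0.91, 1.35 and 0.68, and on the OGD arrays 2.002, 2.05 and 1.26. The OGD arrays lay higher, with the lowest of them just under the highest control. After 24 h the controls read 1.74, 1.37 and 1.25 and the OGD arrays 0.47, 0.93 and 0.56, and the groups did not overlap. The log2 change was 0.79 ± 0.27 (SE) at 7 h (past p, adjusted p = 0.317, 1.73-fold higher) and -0.80 ± 0.27 at 24 h (past p, adjusted p = 0.290, 1.74-fold lower), so neither reached 2-fold. OGD was above control on all 3 slides at 7 h and below on all 3 at 24 h.

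The difference between the Scn8a responses was itself tested and was -1.59 on the log2 scale (past p, adjusted p = 1.00). Without OGD 24 h replicate 1 it was -1.50 (past p, adjusted p = 0.521). The higher level at 7 h depends on the scaling: under spike-in scaling the change was -0.01. It stayed past p under 75th percentile and quantile scaling. With normexp, the methods' t-test or only the slides of replicates 2 and 3 it was short of p. The 1 spike-in probe itself varied, at log2 5.58 to 6.75 on the 7 h arrays and 9.75 to 12.6 on the 24 h arrays. Spike-in scaling moved the median of all probes by -0.81 at 7 h and -1.02 at 24 h. Scaling to the 75th percentile moved it by 0.11 at both times and normexp by 0.13 at 7 h. On the median-centred scale a value is therefore a change relative to the middle probe.

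The other alpha subunits of the brain were lower without passing p. Scn2a (Nav1.2, the pore of immature axons and excitatory neurons) is the brightest probe of this group. It read 5.10, 4.49 and 3.998 in the 7 h controls and 3.59, 4.12 and 4.06 after OGD. The arrays at 24 h gave 5.28, 5.18 and 4.58 in controls and 2.17, 4.48 and 5.26 after OGD, so 1 OGD array lay far below the rest and another above 2 of the controls. Its changes were -0.61 (adjusted p = 0.732) and -1.04 (adjusted p = 0.475). Scn1a (Nav1.1, the pore of fast-spiking interneurons) gave -0.16 (adjusted p = 0.927) and -1.25 (adjusted p = 0.419), and Scn3a, the fetal brain subunit, -0.33 and -0.58. Scn9a, a pore of sensory neurons above background on 2 of 3 OGD arrays at 24 h, gave 0.09 and -0.64. Scn11a, also of sensory neurons, gave -0.61 (adjusted p = 0.424) and 0.10.

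Scn4a, of skeletal muscle, gave -0.50 and 0.44 and was above background on 2 of 3 arrays of both groups at 7 h, and Scn10a was above background on 1 array. At each time 7 of the 9 alpha subunits lay below 0, with medians of -0.45 and -0.64. Normexp background correction turned the median at 7 h to 0.33 and left -0.07 at 24 h, and without OGD 24 h replicate 1 the 24 h median was -0.21.

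Sodium channel beta subunits, which anchor and tune the pore, differed in direction. Scn2b read -2.02, -1.76 and -1.30 in the 7 h controls and 0.60, -0.48 and -1.52 after OGD. Replicates 1 and 2 lay well above the controls while replicate 3 lay among them, so the groups overlap. It rose by 1.23 ± 0.55 (2.34-fold, past p, adjusted p = 0.422), and without OGD 7 h replicate 1 the change was 0.69. The 24 h controls read -1.997, -2.05 and -2.06 and the OGD arrays -0.67, -1.96 and -2.69, a change of 0.26 (adjusted p = 0.871) with OGD arrays on both sides.

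Scn3b is the brightest beta probe and read 7.32, 7.13 and 6.64 in the 7 h controls against 6.12, 7.04 and 6.74 after OGD. After 24 h it read 7.62, 6.97 and 6.51 against 4.47, 6.58 and 6.71, with overlap at both times. The changes were -0.40 (adjusted p = 0.806) and -1.11 (adjusted p = 0.395). Scn4b, which supports resurgent current, gave -0.22 at 7 h and 0.93 at 24 h (adjusted p = 0.413), where its OGD arrays lay above all controls.

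Epithelial sodium channel subunits, known from kidney and lung, were represented by Scnn1a, Scnn1b and Scnn1g. Scnn1a read -1.75, -1.91 and -1.67 in controls and -2.36, -2.16 and -1.93 after OGD at 7 h, with every OGD array below the controls. Its 24 h values were -1.45, -1.23 and -1.39 against -2.32, -1.43 and -1.28, which overlap. The changes were -0.38 (adjusted p = 0.579) and -0.32 (adjusted p = 0.580). Scnn1g, above background on 2 of 3 OGD arrays at each time, had -0.84 at 7 h (past p, adjusted p = 0.420) and -0.26 at 24 h. Scnn1b gave 0.13 and 0.04.

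Scnm1, the splicing factor, read 3.09, 2.72 and 2.70 in the 7 h controls and 2.32, 2.33 and 2.59 after OGD. No OGD array reached the lowest control, and the change was -0.43 (past p, adjusted p = 0.371). At 24 h the values were 2.78, 2.78 and 2.65 against 2.64, 2.77 and 2.72, which is a change of -0.03.

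Calcium channel alpha1 subunits, the pores, showed no common direction at 7 h (median 0.01) and were mostly lower at 24 h (median -0.60, or -0.29 without OGD 24 h replicate 1). Of the 9, 3 were lower by p at 24 h (Cacna1e, Cacna1g and Cacna1h) and 1 higher (Cacna1s). Cacna1h (Cav3.2, a T-type channel that opens near rest) read 2.07, 1.61 and 3.26 in the 7 h controls and 2.48, 2.80 and 2.48 after OGD. Controls at 24 h read 3.31, 3.09 and 3.44 and the OGD arrays 2.87, 2.01 and 1.57. The 7 h controls were scattered and held the OGD arrays between them, while the groups at 24 h did not overlap. It fell by 1.13 at 24 h (2.19-fold, past p, adjusted p = 0.311), after a change of 0.27 at 7 h.

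Without the array that stood apart the change of Cacna1h at 24 h was -1.49 (past p, adjusted p = 0.436). It was short of p under 75th percentile scaling at -1.02 (adjusted p = 0.388), quantile normalization at -1.01 (adjusted p = 0.355) and spike-in scaling at -2.16 (adjusted p = 0.686). The difference between the 2 times was -1.40 (past p, adjusted p = 1.00). Cacna1e (Cav2.3, the R-type channel) read -0.67, -1.09 and -0.81 in controls and -0.53, -0.54 and -0.80 after OGD at 7 h. It read, at 24 h, -0.06, -0.27 and -0.36 against -1.28, -0.69 and -0.52, without overlap. Its changes were 0.23 (adjusted p = 0.703) and -0.60 (past p, adjusted p = 0.313), with a difference between times of -0.83 (past p, adjusted p = 1.00), and without OGD 24 h replicate 1 the 24 h change was -0.37 (adjusted p = 0.464).

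Cacna1i (Cav3.3, T-type), the brightest alpha1 probe, read 4.55, 4.35 and 4.44 in the 7 h controls and 4.28, 4.14 and 4.21 after OGD, all below the controls. After 24 h it read 5.23, 5.16 and 4.97 against 4.56, 4.74 and 5.10. Its changes were small, -0.23 (adjusted p = 0.623) and -0.32 (adjusted p = 0.440). Cacna1g (Cav3.1, T-type) gave -0.36 (adjusted p = 0.696) and -0.87 (past p, adjusted p = 0.316), with -0.41 (adjusted p = 0.449) at 24 h without OGD 24 h replicate 1. The presynaptic pores Cacna1a (P/Q-type) and Cacna1b (N-type) gave 0.32 and -0.28, and -0.28 and -0.86 (adjusted p = 0.409 at 24 h), and the second probe of Cacna1a was above 0 at both times, that of Cacna1b at 7 h.

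Cacna1c, the main neuronal L-type pore, gave 0.01 at 7 h and -0.73 at 24 h (adjusted p = 0.400). Its second probe gave -0.53 (past p, adjusted p = 0.301) and -0.55 (past p, adjusted p = 0.284), so the probes differ at 7 h. Cacna1s, the pore of skeletal muscle, read -2.69, -2.57 and -2.80 in the 24 h controls and -2.33, -2.33 and -2.23 after OGD. The OGD arrays lay above all controls there, with a change of 0.39 (past p, adjusted p = 0.334) after -0.01 at 7 h. Cacna1f was above background on 1 array.

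Among the alpha2delta subunits, the extracellular proteins that gabapentin binds in some members and that raise channel number at the terminal, Cacna2d3 fell at both times. It read 2.39, 2.41 and 2.20 in the 7 h controls and 0.20, 1.38 and 1.38 after OGD. The values at 24 h were 2.77, 2.68 and 2.48 in controls and -0.28, 2.20 and 1.89 after OGD. No OGD array reached a control at either time, with replicate 1 lowest at both. It fell by 1.35 ± 0.56 on the log2 scale at 7 h (2.55-fold, past p, adjusted p = 0.388) and by 1.37 at 24 h (2.59-fold, past p, adjusted p = 0.330). Without OGD 24 h replicate 1 the 24 h change was -0.60 (adjusted p = 0.511), and without OGD 7 h replicate 1 the 7 h change was -0.96 (adjusted p = 0.936).

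Cacna2d1, a gabapentin receptor and the brightest alpha2delta probe, read 4.94, 4.61 and 4.53 in the 7 h controls and 3.64, 4.13 and 4.16 after OGD. After 24 h the controls were at 5.42, 5.24 and 4.97 and the OGD arrays at 3.07, 4.59 and 5.06. The 7 h groups did not overlap, whereas replicate 3 at 24 h lay within the controls. The changes were -0.72 (adjusted p = 0.512) and -0.97 (past p, adjusted p = 0.352, 1.96-fold lower). The 24 h change was -0.38 (adjusted p = 0.571) without OGD 24 h replicate 1, and it was short of p when any one of 9 of the 12 arrays was left out. Cacna2d2 gave -0.08 and 0.26, and Cacna2d4 was above background on no array.

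All 4 calcium channel beta subunits, which bind the pore inside the cell and carry it to the membrane, lay below the controls at both times, with medians of -0.43 and -0.89. Cacnb2 read -0.23, -0.16 and -0.56 in the 7 h controls and -1.78, -1.35 and -1.38 after OGD. Its 24 h values were -0.89, -0.31 and -0.71 against -2.35, -1.19 and -1.10. The groups were apart at both times. It fell by 1.19 ± 0.32 at 7 h (2.27-fold, past p, adjusted p = 0.266), but was short of p under spike-in scaling at -1.99 (adjusted p = 0.784) and normexp at -0.44 (adjusted p = 0.276). At 24 h the change was -0.91 (1.88-fold lower, past p, adjusted p = 0.299), and without OGD 24 h replicate 1 -0.51 (past p, adjusted p = 0.436).

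Cacnb3, the brightest beta probe, read 6.48, 5.79 and 5.82 in the 7 h controls and 5.23, 5.83 and 5.97 after OGD, which overlap. The 24 h controls read 7.24, 7.05 and 6.77 and the OGD arrays 4.89, 6.41 and 6.74. Replicate 3 was just under the lowest control and replicate 1 far below it. The fall at 24 h was 1.01 (2.02-fold, past p, adjusted p = 0.345), after -0.35 at 7 h, and became -0.45 (adjusted p = 0.581) without OGD 24 h replicate 1. Cacnb1 and Cacnb4 gave -0.50 and -0.32 at 7 h and -0.88 (adjusted p = 0.387) and -0.87 (adjusted p = 0.412) at 24 h. The group lay below 0 under every scaling tried, and its 24 h median was -0.39 without OGD 24 h replicate 1.

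**Figure D2:**
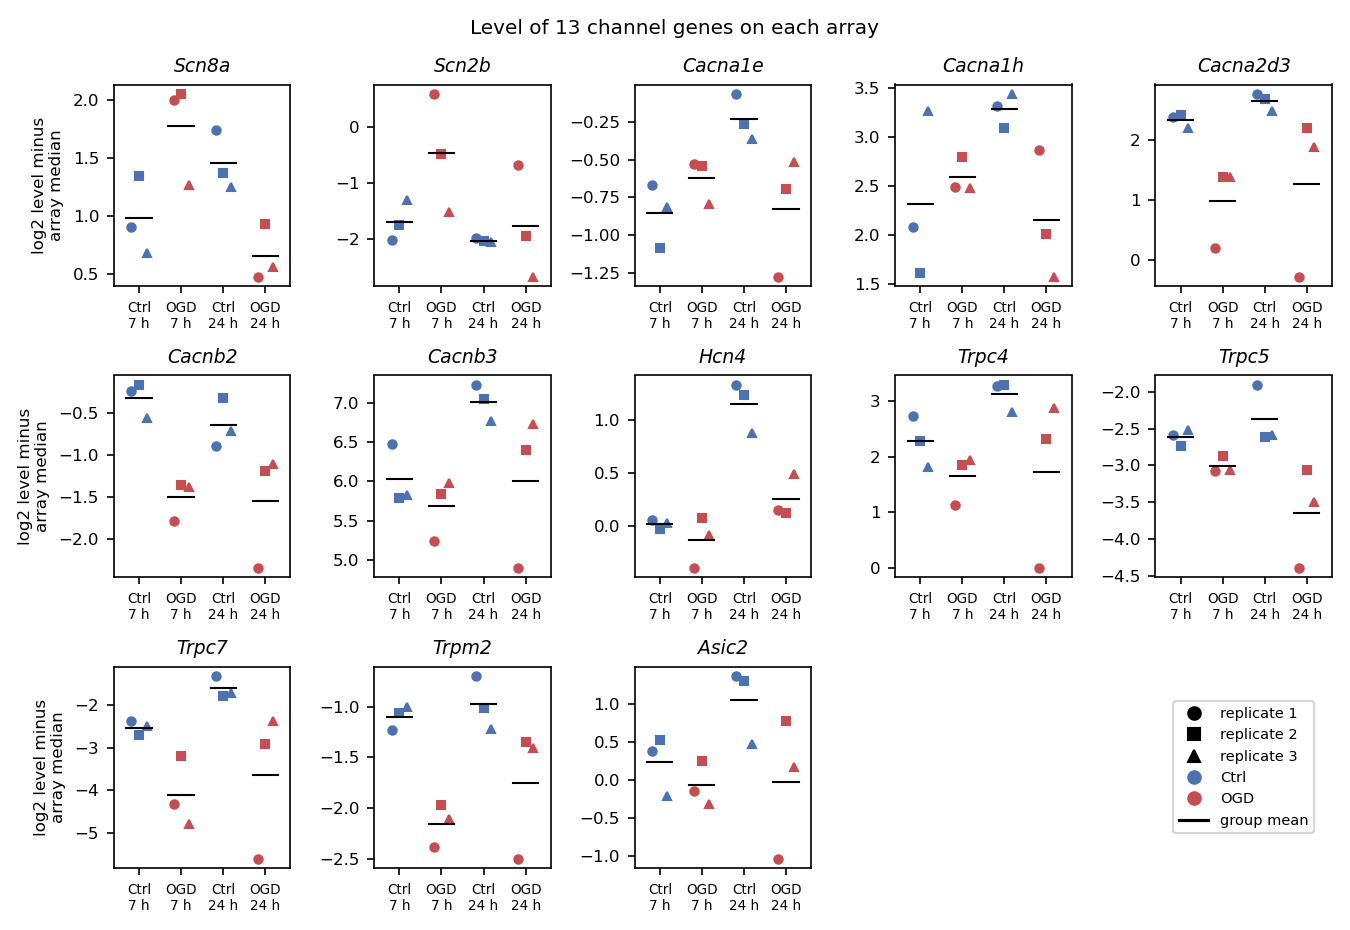
Log2 intensity minus the array median (y axis) of 13 channel genes on each of the 12 arrays, in columns for control and OGD at 7 h and 24 h, with marker shapes for replicates 1 to 3 and a line at the group mean. OGD 24 h replicate 1 is the lowest point for Cacna2d3, Trpc4 and Trpc7, at -0.28, 0.00 and -5.62.

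HCN channels were the one subfamily in which every gene was lower by p at 24 h, 4 of 4, with a median change of -0.93 after -0.30 at 7 h. Hcn4 (a slow cAMP-gated pacemaker subunit) read 0.06, -0.03 and 0.03 in the 7 h controls and -0.39, 0.08 and -0.08 after OGD. Controls at 24 h read 1.33, 1.24 and 0.88 and the OGD arrays 0.15, 0.13 and 0.49. The 7 h groups overlapped and the 24 h groups were apart. The changes were -0.15 (adjusted p = 0.790) and -0.89 ± 0.20 (1.86-fold lower, past p, adjusted p = 0.252), the lowest p of the 62 genes at 24 h, and the difference between times was -0.74 (past p, adjusted p = 1.00). Hcn4 held without OGD 24 h replicate 1, at -0.84 (past p, adjusted p = 0.436).

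Hcn3, another subunit of the family, changed by -0.77 (past p, adjusted p = 0.337) at 7 h and -0.96 (past p, adjusted p = 0.270) at 24 h, with no overlap at either time. It was at -0.79 (past p, adjusted p = 0.436) without OGD 24 h replicate 1.

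Hcn2 read 0.61, 0.48 and 0.54 in the 24 h controls and -0.13, 0.49 and -1.16 after OGD, so replicate 3 was the lowest here and replicate 2 sat among the controls. Its change was -0.81 (past p, adjusted p = 0.347) after -0.07 at 7 h, and -0.88 but short of p (adjusted p = 0.436) without OGD 24 h replicate 1. Without OGD 24 h replicate 1 the HCN median was -0.81, with 4 of 4 genes below 0 and 2 past p. All 4 lay below 0 at 24 h under every scaling tried, while at 7 h 1 of 4 turned above 0 with 75th percentile scaling or normexp.

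TRPC channels, calcium-permeable channels opened downstream of phospholipase C, lay below the controls for 5 of 5 genes at both times, with medians of -0.63 and -1.28, and 3 of the 5 fell at 24 h. Trpc7, a channel gated by diacylglycerol, read -2.38, -2.71 and -2.49 in the 7 h controls and -4.34, -3.19 and -4.79 after OGD. After 24 h the controls read -1.31, -1.79 and -1.73 and the OGD arrays -5.62, -2.93 and -2.37. The groups were apart at both times, but Trpc7 was well above background on only 1 of 3 OGD arrays at 7 h and 2 of 3 at 24 h, so the size of the 7 h change is uncertain. It fell by 1.58 ± 0.70 at 7 h (2.99-fold, past p, adjusted p = 0.417) and fell by 2.03 at 24 h (4.09-fold, past p, adjusted p = 0.295).

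Without OGD 24 h replicate 1 the 24 h change of Trpc7 was -1.04 (past p, adjusted p = 0.436). Normexp background correction turned its 7 h change to 0.36 and left -0.18 at 24 h. Trpc5, a receptor-operated channel that limits neurite growth, read -2.58, -2.74 and -2.52 in the 7 h controls and -3.07, -2.87 and -3.07 after OGD. After 24 h it read -1.90, -2.61 and -2.58 against -4.39, -3.06 and -3.49, and it was above background on 2 of those 3 OGD arrays. The groups did not overlap at either time. The changes were -0.39 (adjusted p = 0.646) and a fall of 1.28 (2.43-fold, past p, adjusted p = 0.254), which was -0.91 (past p, adjusted p = 0.436) without OGD 24 h replicate 1 and 0.07 under normexp.

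Trpc4, which forms channels with Trpc5 and Trpc1, read 2.73, 2.27 and 1.81 in the 7 h controls and 1.13, 1.86 and 1.94 after OGD. The 24 h controls read 3.27, 3.29 and 2.80 and the OGD arrays 0.00, 2.31 and 2.86. Replicate 3 lay above its control and replicate 1 stood far below. It fell by 1.39 at 24 h (2.62-fold, past p, adjusted p = 0.354), after -0.63 at 7 h, and without OGD 24 h replicate 1 the change was -0.53 (adjusted p = 0.579).

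Trpc6, gated by diacylglycerol and known for a protective role in ischemic neurons, read 3.11, 2.65 and 2.49 in the 7 h controls and 0.78, 1.58 and 1.48 after OGD. These groups were wide apart, yet the change of -1.47 (2.78-fold lower) was short of p (adjusted p = 0.462), with limma's error taken over all 4 groups. Trpc6 did fall at 7 h by the methods' t-test, limma on each time alone, array quality weights, normexp and spike-in scaling. It also fell without OGD 24 h replicate 1 or 3, and did not pass both thresholds in the remaining settings. At 24 h Trpc6 read 1.95, 2.25 and 1.87 against -1.09, 1.35 and 2.78, with 1 OGD array above every control and 1 far below, and a change of -1.01 (adjusted p = 0.544). Trpc1, the brightest TRPC probe by its mean, read 3.64, 3.10 and 2.76 against 2.58, 2.95 and 2.71 at 7 h. Its 24 h values were 3.58, 2.85 and 2.53 against 1.75, 2.37 and 2.91. The groups overlapped and the changes were -0.42 (adjusted p = 0.654) and -0.65 (adjusted p = 0.435).

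Trpc4ap, the associated protein, read 7.08, 6.80 and 6.82 in the 7 h controls and 6.49, 6.76 and 6.84 after OGD. It read, at 24 h, 7.66, 7.52 and 7.35 against 6.82, 7.49 and 7.30, with changes of -0.20 and -0.31 and overlap at 7 h and 24 h. As a group the TRPC channels depended on the processing: the 24 h median was -0.53 without OGD 24 h replicate 1, with 4 genes below 0 and 1 above, and normexp left 3 below and 2 above at 7 h.

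TRPM channels had medians of -0.09 and 0.09, and Trpm2 was the only one of the 6 past p at either time. Trpm2, a calcium channel opened by ADP-ribose under oxidative stress, read -1.24, -1.06 and -1.004 in the 7 h controls and -2.39, -1.97 and -2.11 after OGD. After 24 h it read -0.70, -1.02 and -1.22 against -2.50, -1.35 and -1.40. No OGD array reached a control at either time. It fell by 1.06 ± 0.30 at 7 h (2.08-fold, past p, adjusted p = 0.270). That fall was short of p under spike-in scaling at -1.86 (adjusted p = 0.784) and normexp at -0.02 (adjusted p = 0.960). The 24 h change was -0.77 (1.71-fold lower, past p, adjusted p = 0.315), or -0.40 (adjusted p = 0.469) without OGD 24 h replicate 1.

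Trpm4, a calcium-activated channel for monovalent cations, is the brightest TRPM probe. It read -0.71, -0.84 and -0.57 against -0.78, -1.01 and -0.80 at 7 h and -1.06, -1.16 and -1.02 against -0.46, -0.74 and -1.42 at 24 h. The changes were -0.16 (adjusted p = 0.823) and 0.21 (adjusted p = 0.701), within the spread. Trpm8, the cold receptor, gave -0.54 (adjusted p = 0.464) at 7 h, where 2 control arrays and 1 OGD array were above background, and 0.21 at 24 h. Trpm1, Trpm3 and Trpm5 were short of p at both times.

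Of the TRPV channels, Trpv4 was higher at both times without reaching 2-fold. Trpv4, opened by cell swelling and warmth, read -0.66, -0.93 and -0.25 in the 7 h controls and 0.52, 0.11 and -0.24 after OGD. Its 24 h values were -1.24, -1.37 and -0.90 against 0.28, -0.63 and -0.65. The OGD arrays lay above the controls at both times, by a small margin at 7 h. The changes were 0.74 (1.67-fold, past p, adjusted p = 0.391) and 0.83 (1.78-fold, past p, adjusted p = 0.311). Without OGD 24 h replicate 1 the 24 h change was 0.52 (adjusted p = 0.486), and under spike-in scaling the changes were -0.06 at 7 h and -0.19 at 24 h.

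Trpv2, the brightest TRPV probe, read 2.98, 2.41 and 1.69 against 2.28, 2.56 and 2.17 at 7 h. It read, at 24 h, 3.25, 2.52 and 1.95 against 0.62, 2.20 and 2.47. The groups overlapped, with changes of -0.03 and -0.81 (adjusted p = 0.483). Trpv5, a calcium channel of kidney epithelium, was well above background on 0 of 3 control arrays and 2 of 3 OGD arrays at 24 h. It read there -5.74, -6.35 and -5.07 in controls and -0.60, -4.49 and -4.91 after OGD. With the controls raised to the lowest level well above background, the OGD mean was 2.07-fold higher. That difference rests on OGD 24 h replicate 1, and the change was short of p (adjusted p = 0.396). The probes of Trpv5 lay on different sides of 0 at 7 h. Trpv1, the capsaicin receptor, gave -0.29 at both times and was above background on 2 of 3 OGD arrays at 24 h, and Trpv3 and Trpv6 were each above background on 1 array.

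Trpa1, the irritant receptor, read -5.88, -6.00 and -6.29 against -5.65, -5.98 and -5.96 at 7 h. After 24 h it read -6.23, -6.75 and -2.14 against -5.54, -7.19 and -7.10. It was above background on 1 control array at 24 h, and no fold is given.

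Acid-sensing channels, opened by protons as tissue acidifies, had medians of -0.08 and -0.10, and Asic2 fell at 24 h. Asic2 read 0.39, 0.53 and -0.21 in the 7 h controls and -0.14, 0.25 and -0.32 after OGD. Controls at 24 h read 1.38, 1.31 and 0.48 and the OGD arrays -1.04, 0.78 and 0.18. The groups overlapped at both times, through the low control of replicate 3. It fell by 1.08 at 24 h (2.12-fold, past p, adjusted p = 0.327), after -0.31 at 7 h, and without OGD 24 h replicate 1 the change was -0.57 (adjusted p = 0.548).

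Asic1, the subunit of the calcium-permeable homomer that carries acid-evoked injury currents, gave -0.27 (adjusted p = 0.718) and -0.48 (adjusted p = 0.448). A second Asic1 probe gave -0.55 (past p, adjusted p = 0.337) and -0.49 (past p, adjusted p = 0.334). Asic4, the brightest probe of the group, read 4.40, 4.41 and 3.72 against 3.83, 4.25 and 4.23 at 7 h and 3.70, 3.30 and 3.52 against 3.40, 3.47 and 3.69 at 24 h. Its changes were -0.08 and 0.01. Asic3 was above background on 1 array and Asic5 on none.

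The responses at the 2 times were then set against each other in one test. Of the 62 genes, 4 (6.45%, against 3.58% of all probes) had a difference between the 24 h and 7 h changes with p below 0.05: Scn8a, Cacna1h, Cacna1e and Hcn4. In all 4 the 24 h change lay below the 7 h change. Scn8a is the one whose change passed p in both directions. None of them had an adjusted p below 1.00, and leaving out single arrays gave between 1 and 8 such genes.

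Every slide paired a control with an OGD array of equal time and replicate number, so the change can also be read within slides. The median of the 62 differences was -0.59, -0.15 and -0.12 on the slides of replicates 1 to 3 at 7 h. At 24 h it was -0.98, -0.42 and 0.10. The slide of replicate 3 at 24 h thus showed no downward shift of the group as a whole, and the slide of replicate 1 showed the largest at each time. Over all probes the slide medians lay between -0.03 and 0.12. By gene, 23 were lower on all 3 slides at 7 h and 18 at 24 h, and 6 and 7 were higher on all 3. The share of all probes with such slides was not computed, so nothing is read from these counts.

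**Figure D3:**
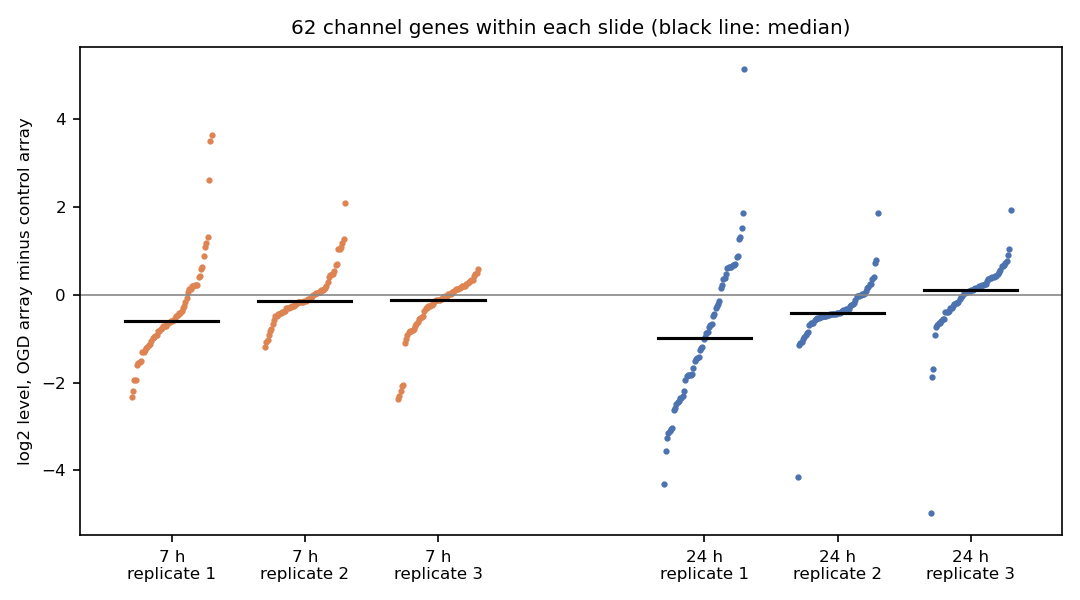
OGD minus control difference within each of the 6 slides (y axis, log2) for the 62 channel genes (points), by time and replicate (x axis), with a line at the median. The medians run from -0.98 on the replicate 1 slide at 24 h to 0.10 on the replicate 3 slide at 24 h.

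Arrays of 3 slides were scanned 177 to 211 minutes apart within the slide, and those of the other 3 with no gap. Both arrays of a slide were scanned on the same day. The slides with a gap were those of replicates 1 and 2 at 7 h and of replicate 1 at 24 h. With only the slides of replicates 2 and 3, Scn8a kept its difference between times at -1.21 (past p, adjusted p = 0.913) and Cacna1h its 24 h change at -1.48 (past p, adjusted p = 0.700). Cacna2d3 was then at -0.93 (past p, adjusted p = 0.327) and -0.53 (past p, adjusted p = 0.700).

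Markers of the cell types in the cultures moved beside these genes. The counts by p in these lists, and in the lists of partners that follow, stand against shares of all probes: 7.03% were lower at 7 h and 6.19% at 24 h, while 4.79% were higher at 7 h and 7.51% at 24 h. All 20 neuronal markers were well above background on every array, and all 20 lay below the controls at 24 h, with a median of -0.63 after -0.31 at 7 h. Of the 20, 11 were lower by p at 24 h and 6 fell: Eno2, Syn1, Syt1, Slc17a7, Gad1 and Gad2, by 1.06 to 1.53 on the log2 scale. Their summed level, relative to the array median, ran from 1367 to 1789 in the 24 h controls and from 900.1 to 1394 after OGD. At 7 h it ran from 1189 to 1530 and from 1303 to 1598. The neuronal medians within the 24 h slides were -1.33, -0.34 and -0.15, in the same order as those of the channel genes. The neuronal median without OGD 24 h replicate 1 was -0.45, with 20 of 20 still below the controls, 5 lower by p and 2 past both thresholds. The part of neuronal content in the channel changes was not tested.

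The 13 astrocyte markers measured of 14 had medians of 0.15 and -0.05, with 2 higher by p at 7 h and 0 passing at 24 h. Their summed levels were 998.5 to 1135 against 1241 to 1565 at 7 h and 1041 to 1404 against 1082 to 1514 at 24 h. The 15 microglial markers had medians of 0.42 and 0.35, with 1 higher by p at each time. Their sums were 19.3 to 20.5 against 21.3 to 32.6 at 7 h and 23.3 to 29.9 against 32.3 to 40.2 at 24 h. Ptprc, the pan-leukocyte marker, was above background on no array, Itgam on 3, and Cx3cr1 rose at 7 h by 1.02 on the log2 scale. The 14 markers of the oligodendrocyte lineage had medians of -0.15 and 0.07, with 3 lower by p at 7 h and 1 higher at 24 h. Their sums were 223 to 232 against 119 to 259 at 7 h and 263 to 361 against 302 to 492 at 24 h. Among them, Cspg4 fell at 7 h by 1.07. The 15 vascular and fibroblast markers had medians of 0.14 and 0.32, with 3 lower by p at 7 h and 2 higher at 24 h. Their sums were 46.2 to 152 against 66.2 to 190 at 7 h and 40.0 to 154 against 137 to 247 at 24 h. The endothelial receptor Tek was above background on no array, and the pericyte receptor Pdgfrb rose at 24 h by 1.34. Other genes of this list went the other way. Cldn5 and Rgs5 passed both thresholds downward at 7 h (-1.48 and -1.33), with 0 OGD arrays above background there. At 24 h 6 of the 15 lay below the controls and 9 above. The part of these cells in the results was not tested.

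Genes that work with these channels were lower at 24 h in some lists. Of 11 measured sodium channel partners and genes of the axon initial segment (14 listed), 11 lay below the controls at 24 h, with a median of -0.60 after -0.24 at 7 h. By p, 7 h had 2 lower and 1 higher, and 24 h had 5 lower and 0 higher. The medians within the 24 h slides were -1.86, -0.45 and -0.18, and without OGD 24 h replicate 1 the median was -0.41, with 3 lower by p. Ank3 codes for ankyrin-G, which holds Scn8a channels at the initial segment, and went the way of Scn8a: 0.50 at 7 h and -0.53 at 24 h, both past p. Cntn2, an axonal adhesion protein, fell by 1.39 at 24 h.

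Of 20 measured calcium channel regulators and presynaptic partners (23 listed), the 7 h arrays put 1 lower by p and 5 higher, and those of 24 h 6 lower and 1 higher, with medians of -0.05 and -0.39. Rimbp2, Cabp1 and Syt1 fell at 24 h, to log2 changes of -1.46, -1.098 and -1.18, and Syt1 is also in the neuronal list. Their median without OGD 24 h replicate 1 was -0.42, with 3 lower and 1 higher by p, and no gene of these first 2 lists was past both thresholds. A list of 13 store-operated, polycystin, mucolipin and leak channel genes had 9 measured, and none of these was a leak channel gene. Of the 9, 1 was lower by p at 7 h and 2 at 24 h (Stim2 and Orai2, at -0.47 and -0.72). In this list 0 were higher, and the medians were -0.23 and -0.12. Of 11 measured HCN, TRP and acid-sensing channel partners (12 listed), 1 was lower by p at 7 h and 2 at 24 h, with 0 higher and medians of 0.14 and -0.08. Pick1, which binds acid-sensing channels, fell by 1.08 at 7 h. Pex5l, the HCN auxiliary subunit TRIP8b, was at -0.79 and past p at 24 h, beside the lower HCN genes.

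**Figure D4:**
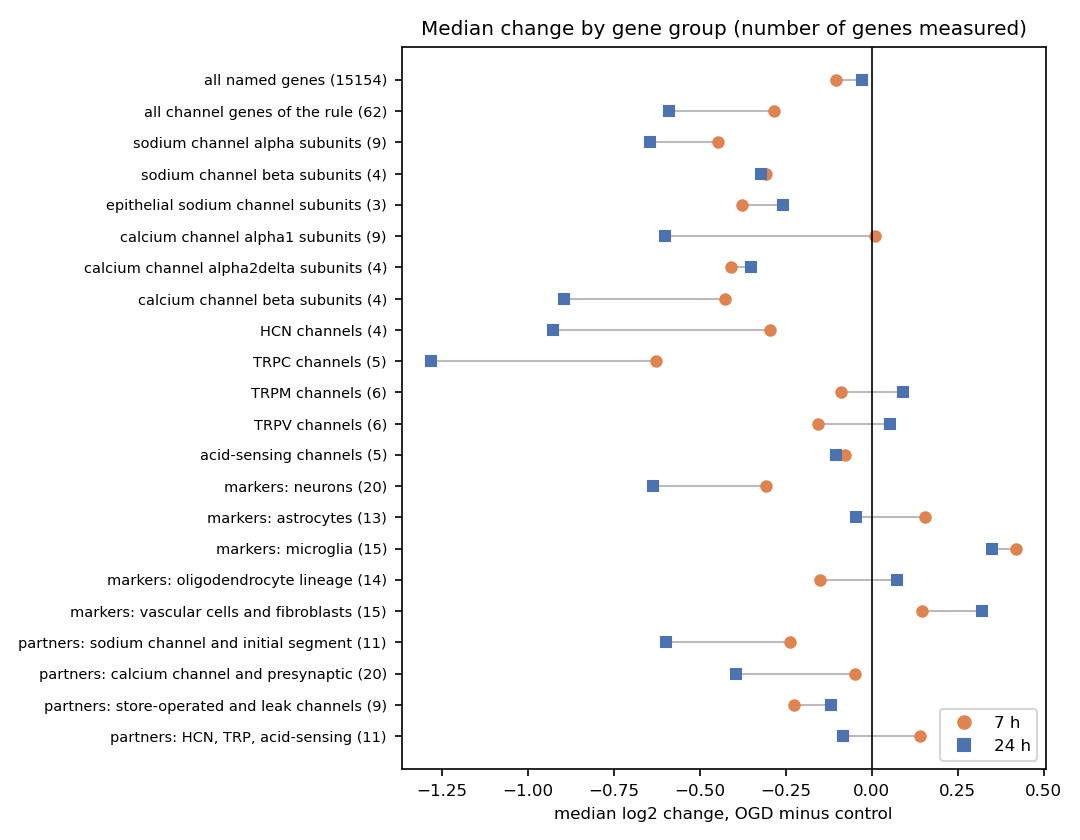
Median log2 change (x axis) of each channel subfamily with more than 1 gene, each cell type marker list and each partner list (y axis) at 7 h and 24 h, beside the median of all named genes. At 24 h TRPC (-1.28), HCN (-0.93) and calcium channel beta subunits (-0.89) lie farthest to the left, past the neuronal markers (-0.63), while all named genes lie at -0.03. Without OGD 24 h replicate 1 (not drawn) the neuronal median was -0.45. HCN and, narrowly, TRPC then lay past it, and the beta subunits did not. The list of store-operated and leak channels held no measured leak channel gene.

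Leaving out each of the 12 arrays in turn shows which calls rest on 1 array. Cacnb2 at 7 h (-1.31 to -1.05) and Trpc7 at 24 h (-2.66 to -1.04) stayed past both thresholds whichever array was left out. Hcn4 at 24 h (-1.03 to -0.80) and the difference between times of Scn8a (-1.85 to -1.45) stayed past p in the same way. Other processing is a separate matter: normexp gave 3 falls at 7 h, of which only Cacna2d3 is among the 4 named above, and Trpc7 at 24 h was lost under normexp, the methods' t-test and the slides of replicates 2 and 3 alone. Trpc5 at 24 h stayed past p but under 2-fold without OGD 24 h replicate 1, as did Trpm2 at 7 h without OGD 7 h replicate 1, at -0.94.

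The other calls needed more than 1 array. Asic2 and Cacnb3 at 24 h were lost without control 24 h replicate 1 or 2 as well as without OGD 24 h replicate 1, with values from -1.49 to -0.57 and from -1.37 to -0.45. Cacna1h was lost without OGD replicate 2 or 3 or control replicate 3 (-1.49 to -0.84). Cacna2d3 was lost at each time without any 1 of the 3 controls or without OGD replicate 1 (-1.55 to -0.96 at 7 h, -1.84 to -0.60 at 24 h). Trpc4 at 24 h, Trpc7 at 7 h and Scn2b at 7 h were past p by small margins and were each lost when any one of 8, 9 and 8 of the 12 arrays, in that order, was left out. Scn8a fell short of p at 7 h without OGD replicate 1 or 2 or control replicate 3 (0.65 to 1.05), and at 24 h without control replicate 1 (-0.94 to -0.66). The differences between times of Cacna1h, Cacna1e and Hcn4 were lost without 9, 3 and 3 of the 12 arrays.

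In the RefSeq gene order 7 runs of these genes neighbour each other, with 14 of the 62 in them. Neighbours did not always go the same way. Scn2a and Scn3a were both lower at both times, whereas Scn2b and Scn4b differed at 7 h, at 1.23 and -0.22. Trpv6 and Trpv5 differed at 7 h as well, but were seldom above background.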

How the data were processed

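Total RNA of the 12 samples (200 ng each) was labelled with Cy3 and hybridised to 1-color Agilent rat arrays with 44254 spots. Of these spots, 42877 were not controls. The authors' scanner files hold spot intensity (gProcessedSignal), background-corrected by Agilent Feature Extraction 10.5.1.1. The authors' deposited log2 table, centred on each array's median with BRB-ArrayTools 3.8.1, differed from the log2 intensities used here by 1 constant per array, within 0.01 for at least 99.9967% of probes. Fold change columns of the authors were not used.

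From the intensities, outlier spots were dropped, spots of a probe were averaged on the log2 scale and each array's median was subtracted. A probe was taken as well above background on an array where at least 50% of its spots were so marked by the scanner software. Accessions were matched to symbols through RefSeq (GRCr8), which named 18004 of 30367 probes. Limma 3.58.1 (R 4.3.3) was fitted on all probes and all 4 groups, with contrasts for OGD against control at 7 h, at 24 h, and for the difference between them, and p was adjusted over all probes by Benjamini-Hochberg. Tables were handled in Python 3.11.15 with pandas 2.3.3. The limma step was tested on simulated data.

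Genes named with every array's value were those that fell or rose, those whose response differed between times, the brightest of each subfamily, and those the study lists. Trpv4, and Hcn2, Cacna1s and Trpv5 at 24 h, were added after their values were seen. The genes, marker lists and partner lists were chosen with earlier results of these data known. Replicates are 3 independent cultures per group, which limits precision. The alternatives were 75th percentile, quantile and spike-in scaling (1 spike-in probe), normexp on the median signal with an offset of 50 (the files hold no mean signal), the authors' values, array quality weights, a filter on dim probes, the mean over a gene's probes, the slide as a block, limma on each time alone, the methods' t-test and leaving out each array. The slides of replicates 2 and 3 alone, and the lists without OGD 24 h replicate 1, were added after the data were seen.

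A few genes that the rule or the lists include are counted but not reported here by name.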

Additional observations from a re-analysis of the deposited data

Results flagged for a closer look

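In 4 genes the response to OGD differed between 24 h and 7 h by the limma test of that difference at an unadjusted p below 0.05, and in each the 24 h change lay below the 7 h change. The difference, on the log2 scale, was -1.59 for Scn8a, -1.40 for Cacna1h, -0.83 for Cacna1e and -0.74 for Hcn4. None passed adjustment over all probes. In Scn8a both changes passed p, in opposite directions. In the other three only the 24 h change did.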

How the results depend on the processing

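The count of genes that fell at 24 h, 8, was the least steady. It was 5 with 75th percentile scaling, normexp or the slide as a fixed replicate block, 4 with array quality weights, 3 with limma on each time alone, 2 with the methods' t-test and 1 with only the slides of replicates 2 and 3. Leaving out single arrays gave 2 to 18: OGD 24 h replicates 1, 2 and 3 gave 2, 15 and 18, and control 24 h replicates 1 and 2 gave 4 and 5. The count that rose at 24 h, 0, was 1 with array weights or the mean over probes (0 to 1 without single arrays). The 4 that fell at 7 h became 2 with spike-in scaling, and 1 to 5 without single arrays (1 without OGD 7 h replicate 1, 2 without control 7 h replicate 2 or 3). The single rise at 7 h, Scn2b, went to 0 with 75th percentile, quantile or spike-in scaling, limma on each time alone, the mean over probes, the methods' t-test, the slides of replicates 2 and 3, or the fixed block. There were 2 rises with array weights, 3 with normexp and 0 to 3 without single arrays.

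The 4 differences between times became 14 with array weights, 2 with normexp, 0 with spike-in scaling and 1 to 8 without single arrays (1 without control 24 h replicate 1 or OGD 7 h replicate 2, 8 without OGD 24 h replicate 1). Limma on each time alone and the methods' t-test give no value for them. The median at 7 h, -0.28, was 0.0097 with normexp and -1.09 with spike-in scaling, and -0.35 to -0.18 without single arrays. The median at 24 h, -0.59, was -1.61 with spike-in scaling, -0.13 on the slides of replicates 2 and 3, and -0.80 to -0.28 without single arrays. Under another scaling or background correction, the changes past p that turned sign were Scn8a at 7 h (-0.014), Trpv4 at 7 h and 24 h (-0.064 and -0.19) and Cacna1s at 24 h (-0.64) with spike-in scaling, and Trpc7 at 7 h (0.36), Scnn1g at 7 h (0.44) and Trpc5 at 24 h (0.068) with normexp. The cause was not tested.

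Arrays of 1 slide shared a replicate number, but their deviations from the group means correlated at only -0.05 to 0.17, against -0.18 to 0.11 for other pairs, so the numbers were not taken as pairs. With the slide as a random block (correlation 0.0176) the counts stayed at 4, 1, 8, 0 and 4. With the fixed block, 5 fell at 24 h and 4 differed between times, of which Scn8a was shared. Over all probes, 505 fell and 631 rose at 7 h, which was 349 and 708 with 75th percentile scaling, 284 and 74 with spike-in scaling and 887 and 2311 with normexp. At 24 h 595 and 1126 became 517 and 20 with spike-in scaling and 542 and 192 with normexp. Array weights gave 5119 and 598 probes past adjustment at 7 h and 24 h. Dim genes such as Trpc7 and Trpc5 are limited by signal over background.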
